A study of Mus musculus with 15 samples.

Results

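The GABA-A receptor is the main inhibitory receptor of the brain, a ring of subunits around a chloride channel that opens when GABA binds. The genes described here are 7 of its subunits, Gabra2, Gabra3, Gabra5, Gabra6, Gabrb1, Gabrb2 and Gabrd. They were taken as a list of names, not by their values, and make up 7 of the 16593 genes and 9 of the 25697 probes measured.

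RNA of whole cerebella from newborn mice, taken on postnatal day 1, was hybridised to Illumina MouseRef-8 v2 arrays, 1 per sample. The 7 KO samples came from Cxcr4 flox/flox; Sox1-Cre mice, labelled as Cxcr4 null, and the 8 WT samples from mice labelled wildtype, which the methods describe as littermates that lack the Cre, all of strain C57BL/6. Whether the WT mice carried floxed Cxcr4 alleles, and the sex of the animals, are not given in the sources used here. Sox1-Cre is active in the neural tube, so that cells of other origin in the dissected tissue, such as meninges and vessels, are not a target of the deletion. The question of the comparison was which transcripts differ in a cerebellum whose neural cells lack the chemokine receptor Cxcr4.

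The subunits differ in when and where they are used. Receptors with Gabra2, Gabra3 or Gabra5 are prominent in the embryonic and newborn brain, whereas Gabra6 marks mature cerebellar granule cells. The delta subunit encoded by Gabrd pairs with the alpha-6 subunit in granule cells, in receptors outside the synapse that carry tonic inhibition.

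Array medians of the signal were 97.3 to 122.9 on KO arrays and 101.2 to 120.8 on WT arrays before scaling, and any 2 arrays correlated at 0.9845 to 0.9956 over all probes. Cxcr4, the deleted gene, had a log2 signal of 6.62 ± 0.17 in KO (SD, n = 7) and 9.28 ± 0.34 in WT (SD, n = 8), and the groups did not overlap (log2 fold change -2.66, limma adjusted p = 9.9e-11). Xist, expressed from the inactive X chromosome of females, was high, at 8.1 or above, on 1 of 7 KO arrays and 6 of 8 WT arrays. Ttr, an abundant choroid plexus transcript, lay between 15.59 and 15.9 on 3 KO arrays and between 15.46 and 15.85 on 3 WT arrays, and at or below 9.56 on the other KO arrays and 10.59 on the other WT arrays. Of the marker lists, 10 of 12 measured Purkinje cell genes and 5 of 11 granule cell lineage genes lay above the array median on every array, against 1 of 10 midbrain genes and 0 of 14 hindbrain Hox genes. Over all genes that share was 48.0%, near that of the granule cell list. The tissue is bulk, so that fewer cells of a type and less RNA per cell cannot be told apart.

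The upstream sequences of 3 alpha subunit genes are shown because the probe of the first lay above the median of every array and the probes of the others below it, and because they contrast in base composition. Each window is the stretch of 250 bases before the outermost annotated start of the gene, from RefSeq on the build GRCm38.p6, printed 5′ to 3′ on the strand of the gene, with every CG pair in capitals. Gabra3 is at chrX:72656920-72657169, Gabra6 at chr11:42321073-42321322 and Gabra2 at chr5:71095850-71096099, all on the minus strand.
Gabra3: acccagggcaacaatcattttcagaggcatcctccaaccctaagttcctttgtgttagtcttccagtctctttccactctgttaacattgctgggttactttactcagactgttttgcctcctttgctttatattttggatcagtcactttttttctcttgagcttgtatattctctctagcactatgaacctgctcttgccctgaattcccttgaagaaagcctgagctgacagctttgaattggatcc
Gabra6: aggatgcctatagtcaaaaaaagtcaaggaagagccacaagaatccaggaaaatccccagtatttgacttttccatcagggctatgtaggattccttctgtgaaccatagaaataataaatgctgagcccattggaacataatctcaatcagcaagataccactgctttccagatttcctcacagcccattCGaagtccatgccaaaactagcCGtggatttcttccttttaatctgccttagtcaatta
Gabra2: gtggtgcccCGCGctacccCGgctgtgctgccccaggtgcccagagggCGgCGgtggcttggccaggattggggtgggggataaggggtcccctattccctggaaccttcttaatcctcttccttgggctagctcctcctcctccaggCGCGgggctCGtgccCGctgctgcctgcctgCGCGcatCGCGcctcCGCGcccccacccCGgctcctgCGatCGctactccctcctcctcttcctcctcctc

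The Gabra3 window has 0 CG pairs and a GC content of 42.4%, and the Gabra6 window has 2 CG pairs and 40.8%. The Gabra2 window has 18 CG pairs and 70.0%, against a median of 6 pairs and 52.4% over 32851 windows of that length, taken before every start that RefSeq annotates, alternative starts included. A TATA box (TATAAA, either strand) is in the Gabra3 window and in 12.4% of all windows, and is in neither of the others. The letters TTGGC or GCCAA, which are one side of the palindrome bound by nuclear factor I (NFI), occur once in the Gabra6 window, 49 bases before the start, and once in the Gabra2 window, 192 bases before it. NFI proteins are known to act on Gabra6 in maturing granule cells, but these letters are in 41.5% of all windows, and a match is a description, not a site. A GC box (GGGCGG, either strand) is in the Gabra2 window and in 32.7% of all windows. In all, 6 of the 7 subunits had a window, and Gabrd did not.

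The signal of a probe is given as log2 after all arrays were scaled to a common median of 6.84. Since probes differ in how strongly they bind, the level of a subunit is not set against that of another. Each probe is instead placed against the array median and against 28 measured genes of other organs, such as the sperm gene Prm1 and the kidney gene Umod, whose mean signals lay between 5.68 and 6.66. A probe within that range may report a transcript that is low or absent, or bind poorly. For instance Gad2, one of the enzymes that make GABA, averaged 5.92 ± 0.12 in KO and 5.77 ± 0.09 in WT, within the range.

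Gabra3, whose protein is a developmental alpha subunit, was above the array median on all 15 arrays. Its log2 signal was 7.71, 7.89 and 7.95 (lowest, median, highest) in KO and 7.60, 7.85 and 8.30 in WT. The groups overlapped, and the WT arrays included both the lowest and the highest value. The gene lies on the X chromosome, at 72432676 to 72656919.

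Gabrb1, which encodes a beta subunit, part of the GABA binding site, was the other gene above the median on all 15 arrays. Its signal was 8.16, 8.27 and 8.45 (lowest, median, highest) in KO and 8.15, 8.36 and 8.63 in WT. The lowest values of the groups nearly coincided, and 3 WT arrays, at 8.45, 8.47 and 8.63, were at or above the highest KO array. Of all genes, 7970 (48.0%) had their brightest probe above the median on every array. Gabrb1 lies on chromosome 5, at 71657921 to 72149572, and Gabra2 lies on the same chromosome, at 70958392 to 71095849.

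Gabrb2, a beta subunit of many adult receptors, had 2 probes. The brighter one had a signal of 6.84, 6.98 and 7.20 (lowest, median, highest) in KO and 6.70, 7.00 and 7.29 in WT. It was above the array median on 7 KO arrays and 5 WT arrays, and the WT values spanned those of the KO. The dimmer probe lay between 6.13 and 6.49 in KO and between 6.19 and 6.51 in WT. It was below the median and within the range of the genes of other organs on every array.

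Gabrd also had 2 probes. The brighter one had a signal of 6.55, 6.78 and 7.02 in KO and 6.57, 6.71 and 6.91 in WT, and was above the median on 3 KO arrays and 1 WT array. Its signal straddled the array median, and its group means lay just above the range of the genes of other organs, with 2 KO arrays and 2 WT arrays within that range. The dimmer probe, at 6.07 to 6.50 in KO and 6.05 to 6.55 in WT, lay within that range in mean. Gabrd lies on chromosome 4, at 155384979 to 155398098.

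The probes of Gabra2, Gabra5 and Gabra6 were below the array median on all 15 arrays, as were the brightest probes of 6281 of all genes (37.9%). Gabra2 had a signal of 5.92, 6.07 and 6.26 (lowest, median, highest) in KO and 5.86, 6.11 and 6.15 in WT. Gabra5, the alpha subunit of extrasynaptic receptors in hippocampus, had 5.71, 5.92 and 6.09 in KO and 5.70, 5.94 and 6.11 in WT. Gabra6 had 5.47, 5.93 and 6.16 in KO and 5.74, 5.93 and 6.26 in WT. For these 3 genes the means of both groups lay within the range of the genes of other organs, so that their transcripts were not told apart from background. The lowest Gabra6 value was on KO replicate 2, and the groups overlapped for every gene. Gabra5 lies on chromosome 7, at 57407669 to 57591016, Gabra6 on chromosome 11, at 42306437 to 42321072, and Gabrb2 near it, at 42419515 to 42632591.

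**Figure D1:**
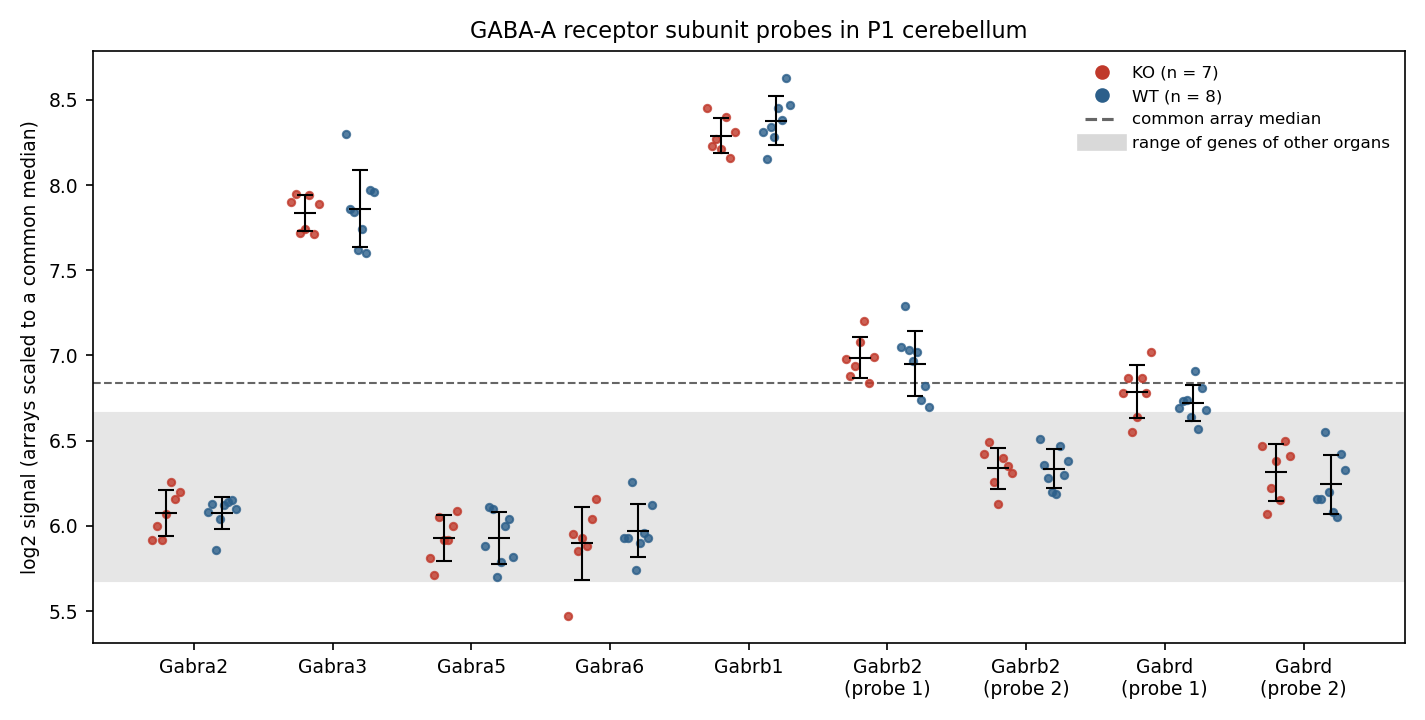
Log2 signal of the 9 probes of the 7 subunits on each array (points), KO left of WT, with mean and SD (bars). The dashed line is the common array median of 6.84 and the grey band runs from 5.68 to 6.66, the range of mean signals of 28 genes of other organs. Gabra3 and Gabrb1 lie above the line on every array, Gabra2, Gabra5 and Gabra6 lie below it, and the groups overlap for every probe.

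None of the 7 subunits was called different between KO and WT. In limma, 21 of 16593 genes (0.127%) passed an adjusted p of 0.05, 8 higher (0.0482%) and 13 lower (0.0783%) in KO, and 0 of the 7 subunits did. At an unadjusted p under 0.05 there were 944 genes (5.69%), 508 higher (3.06%) and 436 lower (2.63%), and again 0 subunits. The groups did not overlap in 24 genes (0.145%), and overlapped for each subunit. With each probe as its own row, 20 of 25697 probes (0.0778%) passed and 0 of the 9 subunit probes. The adjusted p of the subunits ran between 0.984 and 1.0, and a two-sided exact permutation test, over the 6435 ways to split the arrays, gave 0.224 to 0.996.

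The largest difference was that of Gabrb1, which averaged 8.29 ± 0.10 in KO (SD, n = 7) and 8.38 ± 0.15 in WT (SD, n = 8). Its log2 fold change was -0.08 with a standard error of 0.07 (exact permutation p = 0.224). Gabra6 averaged 5.90 ± 0.22 in KO and 5.97 ± 0.16 in WT, a log2 fold change of -0.08 ± 0.09 (SE), and of -0.004 without KO replicate 2. Gabrd averaged 6.79 ± 0.16 in KO and 6.72 ± 0.11 in WT, a log2 fold change of 0.06 ± 0.07 (SE), and its dimmer probe gave 0.07 ± 0.08. The others were closer to 0, at 0.03 ± 0.08 for Gabrb2, -0.03 ± 0.09 for Gabra3, -0.002 ± 0.066 for Gabra2 and 0.0004 ± 0.075 for Gabra5. In all, 4 subunits had a negative and 3 a positive value, with a median of -0.002, against 0.014 over all genes.

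The intervals limit what could have been missed within the fit used, which held genotype alone. Over the 7 brightest probes the 95% intervals ran between -0.262 and 0.212, which are signals 16.6% lower and 15.9% higher in KO. For Gabra3 the interval was -0.21 to 0.16 and for Gabrb1 it was -0.23 to 0.06. These bounds apply to the signal, not to the transcript, above all for probes near background. Any background left in the signal would make a difference in transcript look smaller, for Gabra3 and Gabrb1 too. The fit held no term for sex, and Xist was high on 1 of 7 KO arrays and 6 of 8 WT arrays. With Xist signal as a covariate Gabra3 was 0.0648. Gabrb1 was 0.05 on arrays 1 to 4 alone and -0.212 on arrays 5 to 8 alone, and Gabrb2 was -0.153 and 0.208.

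**Figure D2:**
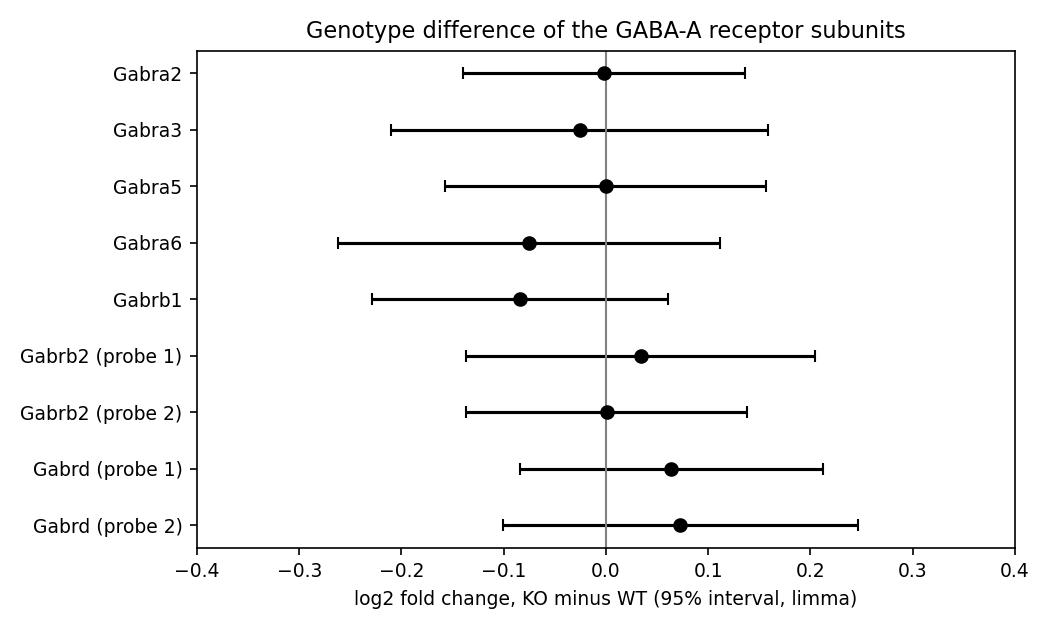
Log2 fold change, KO minus WT, of each subunit probe (points) with its 95% interval from limma (bars), from 7 KO and 8 WT arrays. Every interval crosses 0.

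The arrays numbered 1 to 4 and those numbered 5 to 8 in the labels differ in many genes, which earlier results of these data had shown. In a model that also held genotype, 3451 genes (20.8%) passed an adjusted p of 0.05 between these array sets, and of the 7 subunits Gabra2 did, a share near that of all genes. The signal of its probe, which is within the background range, was 0.16 ± 0.05 (SE) higher on arrays 5 to 8 (limma adjusted p = 0.0404). The call was lost when any of 11 of the 15 arrays was left out (limma adjusted p from 0.051 to 0.0898). The highest was without WT replicate 3, whose value of 5.86 lay apart from the other WT arrays. Leaving out any of the other 4 arrays kept the call (limma adjusted p from 0.0257 to 0.0439). On the 4 KO arrays 5 to 8 Gabra2 had 6.07, 6.26, 6.16 and 6.20, and on the 3 KO arrays numbered 2 to 4 it had 5.92, 6.00 and 5.92. On WT arrays 5 to 8 it averaged 6.13, and on WT arrays 1 to 4 it averaged 6.03. The KO arrays of the sets did not overlap, and the WT arrays did. The share of all genes with such a split was not computed, and a genotype dependence of the Gabra2 set difference was not called (interaction, limma adjusted p = 0.725).

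Between the sets the genotype difference had opposite signs for 6 of the 7 subunits, Gabrd being the exception, at 0.03 on arrays 1 to 4 and 0.08 on arrays 5 to 8. The share of all genes with opposite signs was not computed, so that whether this count is particular to the subunits is not known. The widest changes were those of Gabrb1 and Gabrb2. Gabrb1 averaged 8.32 in KO and 8.27 in WT on arrays 1 to 4, and 8.27 in KO and 8.48 in WT on arrays 5 to 8. Gabrb2 averaged 6.93 in KO and 7.09 in WT on arrays 1 to 4, and 7.03 in KO and 6.82 in WT on arrays 5 to 8. The change in the genotype difference was -0.26 for Gabrb1 (limma adjusted p = 0.47) and 0.36 for Gabrb2 (limma adjusted p = 0.384). Both were under an unadjusted p of 0.05, as were 1654 of the 16593 genes, but neither passed the adjustment, and 0 genes in all did (0.0%). Of the others, Gabra2 was -0.08 on arrays 1 to 4 and 0.04 on arrays 5 to 8, Gabra3 was -0.05 and 0.002, Gabra5 was -0.09 and 0.07, and Gabra6 was -0.21 and 0.02.

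**Figure D3:**
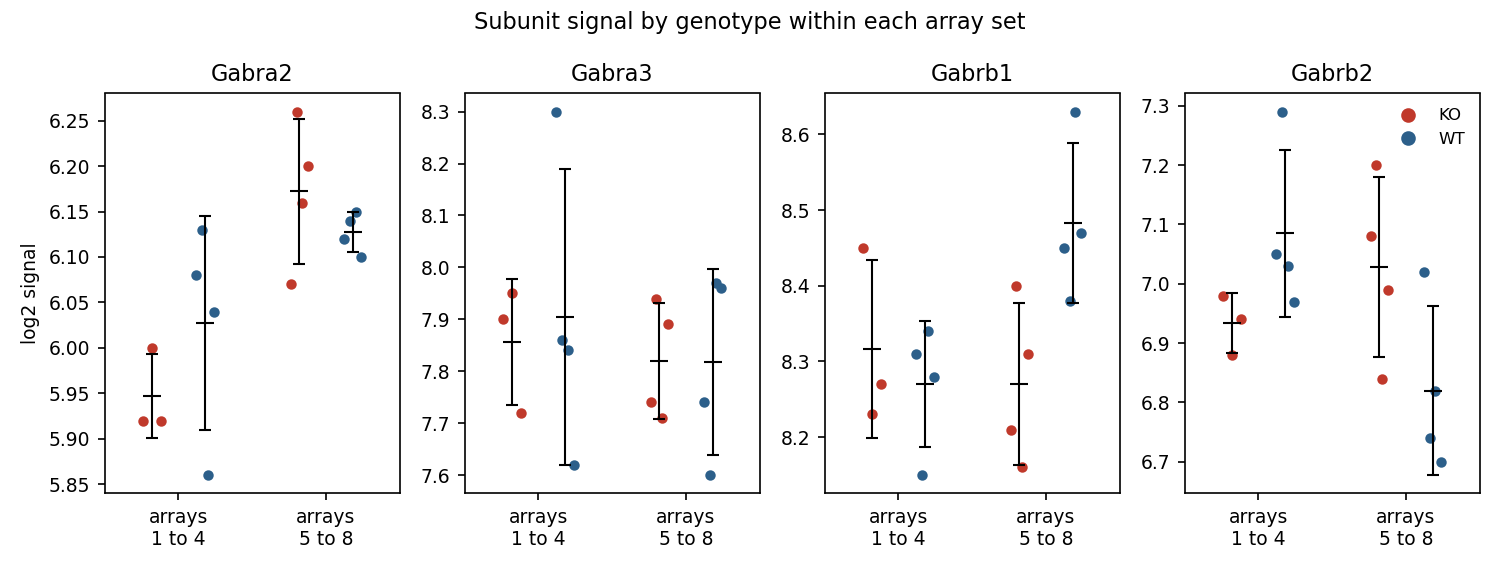
Log2 signal of 4 subunits on each array (points) within arrays 1 to 4 (3 KO, 4 WT) and arrays 5 to 8 (4 KO, 4 WT), KO left of WT, with mean and SD (bars); each panel has its own scale. The Gabra2 means are higher on arrays 5 to 8, and the Gabrb1 and Gabrb2 means change places between the sets.

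Across the 15 arrays, after the mean of each genotype was removed, no pair of subunits moved together beyond the test. Of 21 pairs, 0 passed an adjusted p of 0.05 and 0 an unadjusted p under 0.05. The highest correlation was between Gabra5 and Gabra6, both with probes near background (r = 0.491, p = 0.0615, adjusted 0.895; rho = 0.414, p = 0.125, adjusted 0.878, permutation tests). Without the 2 arrays farthest from the median of Gabra5 it was 0.504, and it was 0.508 and 0.379 within arrays 1 to 4 and 5 to 8. The lowest was between Gabrb1 and Gabrb2 (r = -0.365, p = 0.182; rho = -0.3, p = 0.279, permutation tests). Without the 2 arrays farthest from the median of Gabrb1 it was 0.0622.

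For the subunits above the median on every array, the genes most like them among 16592 others were found by the same correlation, as a description. For Gabra3 they were Fam13c (r = 0.837 over 15 arrays), Crhbp (0.826), which encodes a binding protein of corticotropin-releasing hormone, and Pla2g3 (0.793), a secreted phospholipase. Within the array sets these were 0.696 to 0.941. For Gabrb1 they were Itsn2 (0.862), an endocytic scaffold, the kinase gene Nek9 (0.857) and Galnt11 (0.827), an enzyme of O-linked glycosylation. Within the sets these were 0.636 to 0.936, and the arrays share their scaling. All these genes were picked as the highest of 16592 on these same arrays. The values within the sets are therefore not independent of that choice, and how high the top correlations would be by chance was not computed.

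The rest of the GABA system also had no gene past the threshold. Of the other GABA-A subunits, 9 of 12 had a probe, their means lay between 5.80 and 6.66, all below the array median, and 0 were called. Gabrp, a subunit known mostly outside the brain, had the lowest p among them, with 6.70 ± 0.08 in KO and 6.63 ± 0.12 in WT (0.07 ± 0.06 SE, limma adjusted p = 0.987). Gabrr1, a rho subunit of the retina, had 6.35 ± 0.12 in KO and 6.44 ± 0.19 in WT (-0.09 ± 0.08 SE, limma adjusted p = 0.99). The median log2 fold change of the 9 genes was 0.006.

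GABA synthesis, loading, uptake and breakdown were represented by 10 of 11 listed genes, with 0 called, 1 higher and 1 lower at an unadjusted p under 0.05, and a median of -0.10. Gad1, the other GABA-making enzyme, averaged 11.16 ± 0.12 in KO and 11.33 ± 0.28 in WT (-0.18 ± 0.10 SE, limma adjusted p = 0.93). Slc32a1, the transporter that fills synaptic vesicles with GABA, averaged 12.59 ± 0.27 in KO and 12.76 ± 0.12 in WT (-0.18 ± 0.10 SE, limma adjusted p = 0.923). Both were singled out after their values were seen. Gad2, with the signal given above, was 0.15 ± 0.06 (SE, limma adjusted p = 0.785).

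Slc6a13, a GABA transporter found in meninges, was the gene of this group with the widest spread. It had 11.48, 10.50, 11.34, 9.25, 8.29, 7.44 and 6.43 on the KO arrays and lay between 9.81 and 11.65 on the WT arrays. The 3 KO arrays numbered 2 to 4 were within the WT range, and the 4 KO arrays numbered 5 to 8 were below every WT array. The log2 fold change was -1.52 ± 0.60 (SE, limma adjusted p = 0.729), with 0.23 on arrays 1 to 4 and -2.82 on arrays 5 to 8 (interaction, limma adjusted p = 0.146). The 14 meningeal markers had a median log2 fold change of -0.56, with 0 called and 5 lower at an unadjusted p under 0.05, and their mean signal ranged between 6.87 and 9.37 in KO and between 8.06 and 9.36 in WT. Their part in the Slc6a13 values was not tested.

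Genes that assemble, move and anchor the receptor were mostly bright, 16 of 19 measured being above the median on every array. None of these 19 passed, and their median log2 fold change was 0.006. Dag1, whose product dystroglycan sits at inhibitory synapses, averaged 10.06 ± 0.14 in KO and 10.22 ± 0.20 in WT (-0.17 ± 0.09 SE, limma adjusted p = 0.908; its other probe -0.02). Ubqln1, which encodes a ubiquilin that binds GABA-A subunits, averaged 11.71 ± 0.10 in KO and 11.82 ± 0.18 in WT (-0.12 ± 0.08 SE, limma adjusted p = 0.956), and its 3 other probes ran between -0.04 and 0.08.

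Chloride transporters set whether an open receptor inhibits or excites, since newborn neurons take up chloride through Slc12a2 and mature neurons extrude it through Slc12a5. Slc12a2 averaged 11.94 ± 0.33 in KO and 11.84 ± 0.17 in WT (0.10 ± 0.12 SE, limma adjusted p = 0.991), with 0.40 on arrays 1 to 4 and -0.15 on arrays 5 to 8. Its 3 other probes ran between -0.12 and 0.02. On the 3 KO arrays with high Ttr, replicates 2, 3 and 5, Slc12a2 had 12.40, 12.11 and 12.27, and on the other KO arrays 11.59 to 11.85. On the 3 WT arrays with high Ttr it had 11.93, 11.95 and 12.05, and on the other WT arrays 11.62 to 11.99. The part of choroid plexus in these values was not tested. Slc12a5, chosen after its values were seen, had 6.10 ± 0.18 in KO and 6.03 ± 0.13 in WT, within the range of the genes of other organs. Oxsr1, a kinase that acts on these transporters, averaged 7.21 ± 0.36 in KO and 7.39 ± 0.21 in WT (-0.17 ± 0.13 SE, limma adjusted p = 0.971). Of this list, 7 of 10 genes were measured and 0 were called.

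Among 6 of 8 GABA-B receptor genes and partners, 0 were called. Kcnj6, a potassium channel that GABA-B receptors open, averaged 8.12 ± 0.27 in KO and 7.84 ± 0.20 in WT (0.28 ± 0.11 SE, limma adjusted p = 0.729). Its 3 other probes gave 0.24, 0.11 and -0.004. The related Kcnj9 gave 0.10 ± 0.07 (SE, limma adjusted p = 0.962). Of the 7 genes of glycine receptors and transporters 0 were called. Glra2, a glycine receptor subunit of the immature brain, averaged 10.98 ± 0.22 in KO and 11.12 ± 0.26 in WT (-0.13 ± 0.11 SE, limma adjusted p = 0.985), and Slc6a5, the glycine transporter of glycinergic neurons, was 0.13 ± 0.07 (SE, limma adjusted p = 0.926).

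**Figure D4:**
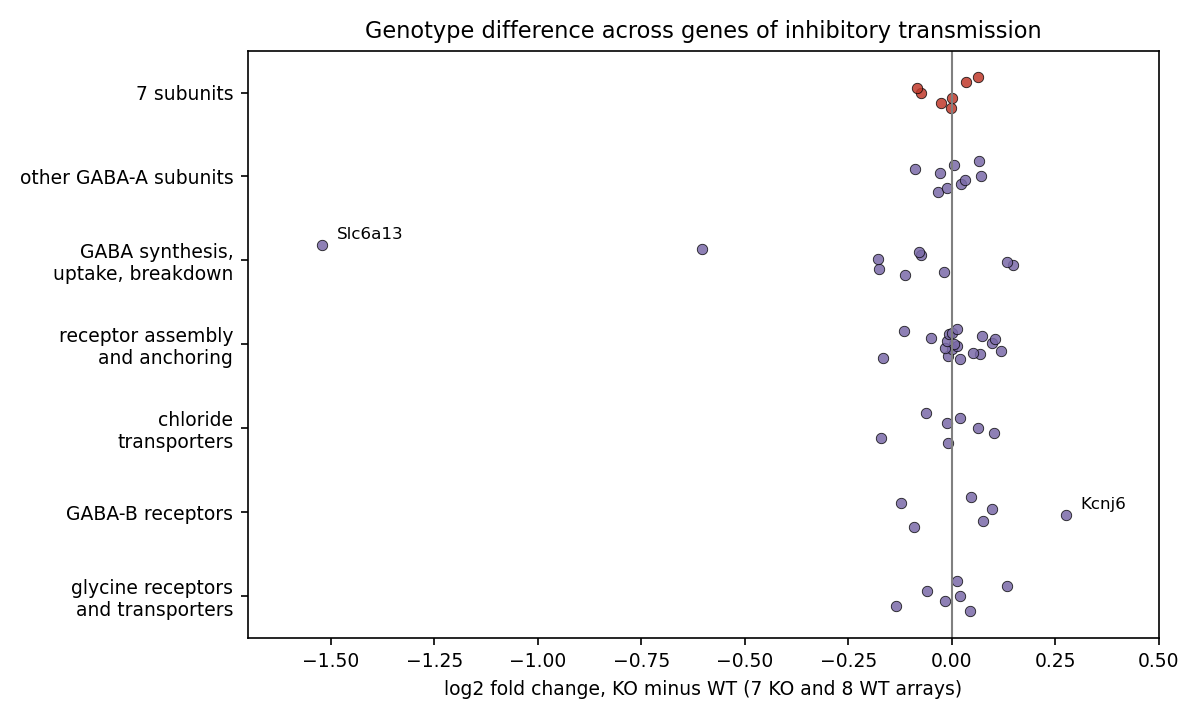
Log2 fold change, KO minus WT, of every measured gene of the lists on inhibitory transmission (points, brightest probe, 7 KO and 8 WT arrays), with the 7 subunits in the top row. The subunits lie between -0.08 and 0.06, and Slc6a13, at -1.52, stands apart; no gene shown passed the adjusted threshold.

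Some markers of cells that carry or receive GABA did pass it in the same fit. Ptf1a, the factor that commits cerebellar progenitors to GABAergic fates, fell by 0.73 on the log2 scale (7.70 ± 0.26 in KO, 8.42 ± 0.22 in WT, limma adjusted p = 0.00453). Neurog2, a proneural factor, fell by 0.58 (7.05 ± 0.11 in KO, 7.62 ± 0.21 in WT, limma adjusted p = 0.00248), but its dimmer probe gave 0.002. They were 2 of 11 measured genes of GABAergic interneuron precursors, of which 0 were called higher. At an unadjusted limma p under 0.05, 5 of the 11 were lower and 2 were higher. Pvalb, a calcium buffer of Purkinje cells and interneurons, rose by 0.68 (10.02 ± 0.27 in KO, 9.33 ± 0.26 in WT, limma adjusted p = 0.0156), as 1 of 12 Purkinje cell genes. The list as a whole did not rise, with a median log2 fold change of -0.02. At an unadjusted limma p under 0.05, 1 of the 12 was higher and 1 lower. Barhl1, of the granule cell lineage, rose by 0.50 (11.71 ± 0.21 in KO, 11.21 ± 0.13 in WT, limma adjusted p = 0.0137), as 1 of 11 genes. Gdf10, a Bergmann glia marker, fell by 0.78 (12.39 ± 0.16 in KO, 13.17 ± 0.19 in WT, limma adjusted p = 0.000162), the 1 gene called of 11 measured astrocyte and Bergmann glia genes. That list had a median log2 fold change of -0.03, with 2 lower and 0 higher at an unadjusted limma p under 0.05. Bcas1, of oligodendrocytes, rose by 0.59 (12.23 ± 0.20 in KO, 11.63 ± 0.15 in WT, limma adjusted p = 0.00244), the 1 gene called of 9 measured in its list. The median of that list was 0.10, with 2 higher and 0 lower at an unadjusted limma p under 0.05. The study had named Ptf1a and Neurog2 from these arrays, so that their calls are not independent evidence. It also reported lower levels of both in KO by quantitative PCR on newborn cerebella.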

How the data were processed

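The authors amplified and biotin-labelled RNA from each cerebellum, hybridised it to Illumina BeadChips and extracted signals with GenomeStudio. They deposited a linear signal intensity per probe, not normalized between arrays, and a log2 table of the same arrays scaled to a common median. Whether background was subtracted is not given in the sources used here. The lowest deposited signal of an array was 38.0 to 45.6, and 0 values were at or below 0. Intensities were log2 transformed and scaled to the common median, as the methods state, which gave the deposited log2 values to within 6.2e-05, so that all levels are relative to the median probe. A single gene symbol was given for 23978 probes, several for 0 and none for 1719, and 23962 probes matched GRCm38.p6 by Entrez identifier. The brightest probe stood for its gene, with no filter on dim probes.

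KO was compared with WT by limma 3.58.1 (lmFit, eBayes, Benjamini-Hochberg over all genes, threshold 0.05) in R 4.3.3, with exact permutation tests for single subunits and 100000 resamples for correlations. Python 3.11.15, numpy 2.4.6, pandas 2.3.3, scipy 1.17.1 and matplotlib 3.10.9 were used, and the fit was tested on simulated data. Named genes are all subunits, for each other list on GABA, chloride or glycine the genes past the threshold and the 2 with the lowest p, of the cell type lists those past the threshold, the 3 genes most like each subunit above the median on every array, and Cxcr4, Ttr, Xist and Eif2s3y. The members and lists were chosen with earlier results of these data known. Same-numbered KO and WT arrays correlated at -0.196 to 0.394 in their deviations from the group means (7 pairs, 3 over 0.1), so that the numbers were not used as pairs. The methods call the samples biological replicates. Alternatives were other normalizations, background corrections, probe rules, variance models, covariates and blocks, each array set alone, and each array left out. The Y-linked gene Eif2s3y ran opposite to Xist, at 5.97 to 6.09 on the arrays where Xist was high and 8.8 to 9.49 on the others.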

Additional observations from a re-analysis of the deposited data

Results flagged for a closer look

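In 2 of 62 groups of 7 or 8 arrays, 1 array lay far from the others by Dixon's criterion, which chance exceeds in about 1 in 20 groups. Gabra2 had a log2 signal of 5.86 on WT replicate 3, with the next lowest WT array at 6.04, so that the gap was 0.614 of the WT range against a critical value of 0.526. Kcnj6 had 7.57 on KO replicate 2, with the next lowest KO array at 8.04, a gap of 0.584 of the KO range against a critical value of 0.568.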

How the results depend on the processing

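Under 29 alternatives, 15 of which left out 1 array, 0 subunits passed the threshold, and the lowest adjusted p of a subunit was 0.466 in limma. The subunit values stayed between -0.212 and 0.208, and 33 of 199 had the opposite sign to the value reported; the cause was not tested. Gabra5, which was closest to 0, was -0.0198 with quantile normalization, -0.000151 without normalization, -0.00897 with normexp background correction, -0.00261 with the array set as a block, -0.0894 on arrays 1 to 4 alone and -0.0117 with Ttr signal as a covariate. On arrays 1 to 4 alone Gabrb1 was 0.05 and Gabrb2 -0.153. On arrays 5 to 8 alone Gabra2 was 0.0424, Gabra3 0.00204 and Gabra6 0.0224. With array weights Gabra2 was 0.0139, and with Xist signal as a covariate Gabra3 was 0.0648. With the replicate number as a block, which the correlations of same-numbered arrays do not bear out as a pairing, 15 genes were called, Gabra3 was 0.037 and Gabra5 -0.00655, and 1 of 7 numbers correlated best with its own. Leaving out 1 array at a time gave -0.034 to 0.0241 for Gabra2, -0.063 to 0.037 for Gabra3, -0.0326 to 0.0367 for Gabra5, -0.119 to -0.00448 for Gabra6, -0.117 to -0.0477 for Gabrb1, -0.00266 to 0.0815 for Gabrb2, 0.0246 to 0.104 for Gabrd, and 18 to 27 genes called. Gabra6 was -0.00448 without KO replicate 2, -0.119 without KO replicate 8 and -0.0344 when WT replicate 3 was dropped, Gabrb1 was -0.0477 without WT replicate 7, and Gabrd was 0.104 without KO replicate 4, 0.0246 without KO replicate 8 and 0.0422 when WT replicate 6 was dropped. Leaving out arrays for the Gabra2 difference between array sets was chosen after seeing the data, and gave 0.135 to 0.182. The count of 21 genes became 35 with the array set as a block, 45 on arrays 5 to 8 alone and 13 with Xist as a covariate; the cause was not tested. A filter on dim probes kept 9067 genes and 3 of the 7 subunits, Gabra3, Gabrb1 and Gabrb2, so that it gave no value for the other 4, whose signals are close to background.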
